A study of Mus musculus with 2 samples.

Results

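T cells help B cells and dendritic cells through surface proteins, and 10 genes of this contact were followed here by cell class and diet in the islets of NOD mice. They were chosen by symbol: the TNF family ligands Tnfsf8, Tnfsf11 and Cd40lg, the CD28 family receptors Icos and Cd28, the cytokine receptor Il21r, and the partners Cd40, Cd83, Cxcr5 and Tnfrsf13c on B cells and dendritic cells. They are 10 of the 32285 genes in the count matrices, chosen with earlier results of these data known. NOD mice are inbred and develop autoimmune diabetes after immune cells enter the islets, and their islets were profiled by single-cell RNA sequencing with droplet 3' chemistry. The mice were 5 weeks old when a diet labelled HAMS or a diet labelled HAMSAB began, and each diet lasted 5 weeks. HAMS is known in the field as high-amylose maize starch, and HAMSAB as that starch carrying acetyl and butyryl groups. Both groups share the NOD genotype, no mice on ordinary chow are among the samples, and how many mice went into a library is not stated in the labels. Each diet had 1 library, so no difference between the diets has a replicate check, no test was possible, and each interval below is a 95% interval for counting error only.

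A T cell that meets its antigen receives a second signal through CD28 and then places ICOS, CD40 ligand and other TNF family ligands on its surface. CD40 ligand acts on CD40 of B cells and dendritic cells, which in turn raise CD83 and other activation proteins, and interleukin 21 from helper T cells acts on B cells and other lymphocytes through the receptor that Il21r encodes. CXCR5 guides B cells and follicular helper T cells into follicles, and the BAFF receptor, encoded by Tnfrsf13c, carries the survival signal of mature B cells. In NOD islets these contacts take place between infiltrating T cells, B cells and dendritic cells around the endocrine cells.

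The genes are protein coding in the GENCODE M21 annotation of GRCm38. Cd28 at chr1:60716800-60773359 and Icos at chr1:60977927-61000320 lie on the same strand of chromosome 1 with a gap of 204.568 kb. Tnfsf8 is at chr4:63831308-63861347, Tnfsf11 at chr14:78277445-78308043, Cd40lg at chrX:57212143-57224042 and Il21r at chr7:125603429-125633570. Cd40 is at chr2:165055627-165072948, Cd83 at chr13:43784775-43803132, Cxcr5 at chr9:44511787-44561877 and Tnfrsf13c at chr15:82221743-82224369. A promoter sequence of RefSeq, build GRCm38.p6, was matched for 4 of the 10 genes. All 4 matched sequences are shown, those of Tnfsf8, Tnfsf11, Il21r and Tnfrsf13c. Of these, Tnfsf8 and Tnfsf11 were at least 2-fold higher in HAMSAB T-like cells. The ratio of Il21r was below 0 in each immune class with a value, and the RNA of Tnfrsf13c marks B-like cells. The windows searched end at the base before the RefSeq gene start. The bases printed are at chr4:63861348-63861534 (minus strand, Tnfsf8), chr14:78308044-78308293 (minus strand, Tnfsf11), chr7:125603179-125603428 (plus strand, Il21r) and chr15:82224381-82224630 (minus strand, Tnfrsf13c). For Tnfsf8 the last 63 of the 250 bases searched lie inside the GENCODE gene and are not printed. Each sequence runs 5′ to 3′ on the gene's strand, and capitals mark matches on either strand to any of 4 motifs, TGANTCA (AP-1 type), TTCNNNGAA (STAT type), GGAAA (NFAT type) and a kappa B type of GGG, any 5 bases and CC.
Tnfsf8: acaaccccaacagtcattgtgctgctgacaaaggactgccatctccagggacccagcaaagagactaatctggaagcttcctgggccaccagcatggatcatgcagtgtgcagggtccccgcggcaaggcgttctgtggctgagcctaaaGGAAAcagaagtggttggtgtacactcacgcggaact
Tnfsf11: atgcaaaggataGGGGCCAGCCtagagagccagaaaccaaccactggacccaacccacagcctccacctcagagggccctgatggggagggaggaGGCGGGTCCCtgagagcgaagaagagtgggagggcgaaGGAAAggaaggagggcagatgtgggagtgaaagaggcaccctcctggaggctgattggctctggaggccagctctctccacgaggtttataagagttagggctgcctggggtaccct
Il21r: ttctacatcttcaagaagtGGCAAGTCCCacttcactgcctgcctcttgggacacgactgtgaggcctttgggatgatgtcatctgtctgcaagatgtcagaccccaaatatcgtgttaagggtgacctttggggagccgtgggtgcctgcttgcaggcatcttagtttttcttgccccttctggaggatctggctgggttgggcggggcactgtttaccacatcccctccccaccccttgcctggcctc
Tnfrsf13c: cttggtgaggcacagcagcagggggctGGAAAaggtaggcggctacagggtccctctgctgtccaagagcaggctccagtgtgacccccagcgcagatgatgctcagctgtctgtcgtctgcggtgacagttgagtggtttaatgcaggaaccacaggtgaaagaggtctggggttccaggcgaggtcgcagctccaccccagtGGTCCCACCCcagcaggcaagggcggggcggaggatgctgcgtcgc
No match to TGANTCA or TTCNNNGAA was in these 4 windows, and of 32851 mouse promoter windows of 250 bases 6.75% and 7.02% held one. GGAAA had 1 match each in Tnfsf8, Tnfsf11 and Tnfrsf13c and none in Il21r, beside 55.6% of all windows with a match. The kappa B type had 2 matches in Tnfsf11, 1 each in Il21r and Tnfrsf13c and none in Tnfsf8, beside 45.8% of all windows. No matches overlapped, and with motifs this common the matches describe the letters only.

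Captured RNA molecules were counted as unique molecular identifiers (UMIs), 3599756 over 4352 barcodes for HAMS and 4254040 over 5022 for HAMSAB, and 6 barcodes occurred in both. After the cell filter 4185 and 4628 cells remained, with medians of 704 and 705 UMIs. Cells were grouped into classes by cluster and fixed marker genes, and levels are given as CPM, the UMIs of a gene per 1000000 UMIs of its class in that library. T-like cells numbered 313 in HAMS and 705 in HAMSAB, B-like cells 193 and 643, plasma-like cells 21 and 61, conventional dendritic (cDC-like) cells 126 and 181, plasmacytoid dendritic (pDC-like) cells 33 and 67, and macrophage-like cells 294 and 392. At least 1 of 5 defining T cell genes was seen in 84.0% and 78.9% of T-like cells, and at least 1 of 5 defining B cell genes in 83.4% and 80.4% of B-like cells. A further group of 715 and 978 cells, led by Il1r2 and Ifitm1, held none of the marker genes among its 10 leading genes, stayed unnamed and is called the Il1r2 cluster. Defining endocrine genes summed to 4990 and 6427 CPM in T-like cells, so RNA of islet cells was present in that class in both libraries.

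The 10 genes together took 1475 UMIs in HAMS cells and 2604 in HAMSAB cells. Along their known roles, Tnfsf8, Tnfsf11, Icos and Cd28 were highest in T-like cells, and Tnfrsf13c and Cxcr5 in B-like cells. T-like cells held 96.0% and 97.1% of the Tnfsf8 UMIs of the HAMS and HAMSAB libraries, 96.7% and 94.6% of those of Tnfsf11, 86.1% and 87.2% of those of Icos, and 93.9% and 87.4% of those of Cd28. B-like cells held 79.4% and 92.5% of the Tnfrsf13c UMIs and 47.8% and 64.9% of those of Cxcr5. Cd83 and Cd40 were spread over antigen-presenting classes, and Il21r over every immune class. B-like cells held only 4% and 17.2% of the Cd40 UMIs, and Cd40lg had none in any class. Tnfrsf13c stood among the 10 leading genes of the B-like cluster and entered the clustering, so its place in that class is a description.

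**Figure D1:**
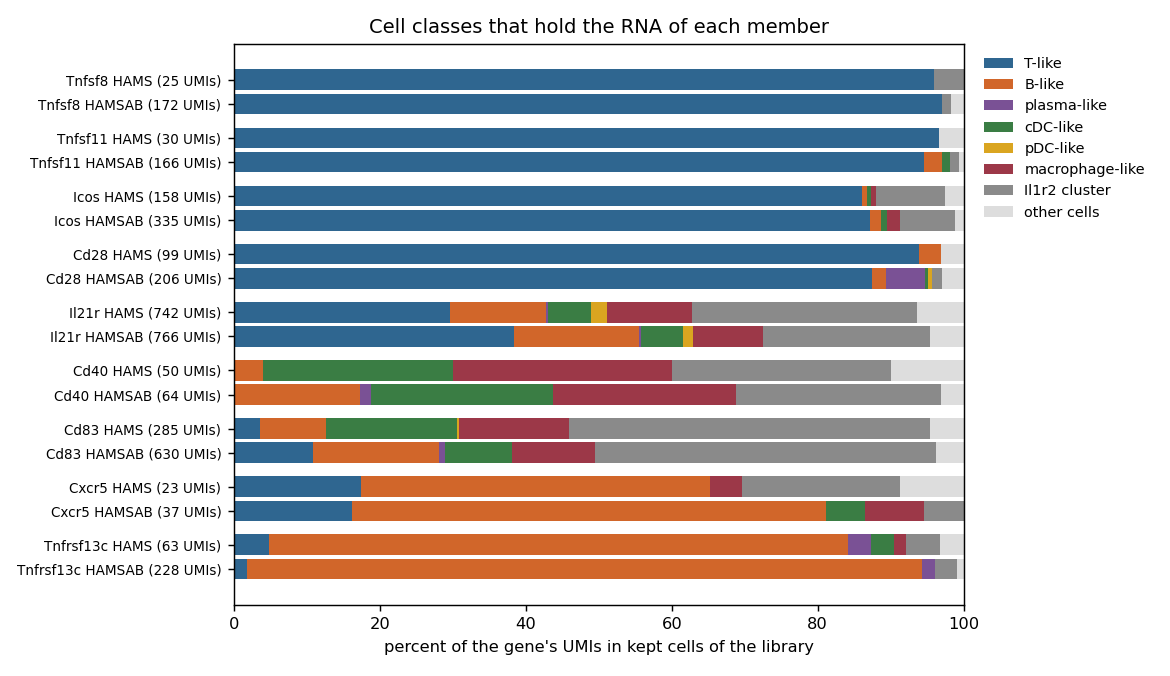
Share of each gene's UMIs (x axis, percent of the UMIs in kept cells of a library) by cell class (colours), with 1 bar per gene and diet and the UMI number in the label. Blue T-like segments fill at least 86.1% of the bars of Tnfsf8, Tnfsf11, Icos and Cd28, and no single class holds more than 49.5% of Cd83.

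Tnfsf8 encodes CD30 ligand, a TNF family protein of activated T cells. T-like cells held 24 Tnfsf8 UMIs in the HAMS library, 58.9 CPM (37.7 to 87.7), and 167 in the HAMSAB library, 226 CPM (193 to 262). The intervals did not overlap, and the log2 ratio of HAMSAB over HAMS was 1.94 (1.31 to 2.62), a 3.83-fold higher level. At least 1 Tnfsf8 UMI was seen in 15 of 313 HAMS cells (4.79%, 2.71 to 7.78) and in 91 of 705 HAMSAB cells (12.9%, 10.5 to 15.6). No single cell carried the total, since the highest count in a cell was 5 UMIs in HAMS and 6 in HAMSAB, and 6 and 38 cells had 2 or more. The median depth of T-like cells was 961 UMIs for HAMS and 784 for HAMSAB, so the deeper cells were those with the smaller share. After each cell was thinned to 500 UMIs the shares were 3.05% (1.33 to 5.93) of 262 cells and 6.69% (4.75 to 9.10) of 553 cells. These thinned intervals overlapped. Beta-like cells, which should lack the gene, had 0 of 1360 and 0 of 734 cells with a UMI at median depths of 673 and 811.5 UMIs. By the limit used here for a count of 0, which is 3 counts of the total, this allows shares of up to 0.221% and 0.409%, and the exact upper bounds are 0.271% and 0.501%. The other immune groups held 1 Tnfsf8 UMI in HAMS and 2 in HAMSAB, all in the Il1r2 cluster.

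Tnfsf11 encodes RANKL, a ligand that T cells present to dendritic cells and to precursors of osteoclasts. T-like cells held 29 Tnfsf11 UMIs in HAMS, 71.2 CPM (47.7 to 102), and 157 in HAMSAB, 212 CPM (180 to 248). The intervals did not overlap, and the log2 ratio was 1.57 (0.996 to 2.20). Cells with a Tnfsf11 UMI were 22 (7.03%, 4.46 to 10.4) in HAMS and 86 (12.2%, 9.87 to 14.8) in HAMSAB. At 500 UMIs the shares were 3.05% (1.33 to 5.93) and 7.41% (5.37 to 9.92). The share intervals overlapped at their ends both before and after thinning. Positive cells also held more UMIs each in HAMSAB, 1.83 on average against 1.32. B-like cells held 0 and 4 Tnfsf11 UMIs and cDC-like cells 0 and 2, near the level of a single molecule, and beta-like cells none.

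The Tnfsf8 and Tnfsf11 molecules were partly in the same cells. In HAMSAB 31 T-like cells held both, which was 34.1% of the Tnfsf8 cells and 36.0% of the Tnfsf11 cells, while 12.2% of all T-like cells had a Tnfsf11 UMI. In HAMS 2 cells held both, 13.3% of 15 Tnfsf8 cells and 9.09% of 22 Tnfsf11 cells. Deeper cells show more genes, and the HAMSAB cells with a Tnfsf11 UMI had a median of 1318.5 UMIs against 784 for all T-like cells of that library, those with Tnfsf8 867. How much of the joint detection goes with depth was not tested. Any of the 3 ligand genes was detected in 11.2% (7.91 to 15.2) of HAMS and 20.7% (17.8 to 23.9) of HAMSAB T-like cells, and in 6.11% (3.53 to 9.73) and 12.8% (10.2 to 15.9) at 500 UMIs.

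Cd40lg, which encodes the ligand of CD40 and is the best known helper signal to B cells, had 0 UMIs in every barcode of both matrices, filtered cells or not. In T-like cells this was 0 of 313 HAMS and 0 of 705 HAMSAB cells. At 3 counts this allows shares of cells with a UMI of up to 0.958% and 0.426% (exact upper bounds 1.17% and 0.522%), which do not limit the share of cells that express the gene. On the CPM scale 3 counts of the class total are 7.36 in HAMS and 4.05 in HAMSAB. The gene is listed in the matrices, and over all barcodes together 3 counts are 0.382 CPM, so its RNA was not detectable at this depth in any class. Whether the annotation or the 3' chemistry bears on that value was not tested.

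Icos encodes a CD28 family receptor of activated and follicular helper T cells, and its RNA level in T-like cells was close in both libraries. T-like cells held 136 Icos UMIs in HAMS, 334 CPM (280 to 395), and 292 in HAMSAB, 394 CPM (350 to 442). The intervals overlapped, and the log2 ratio of 0.24 (-0.06 to 0.54) leaves room for a level up to 0.54 higher on the log2 scale. Icos was seen in 25.9% (21.1 to 31.1) and 26.2% (23.0 to 29.7) of T-like cells. The Il1r2 cluster was next in order at 28.8 CPM (16.1 to 47.5) and 36.3 CPM (23.5 to 53.5), with a log2 ratio of 0.33 (-0.65 to 1.36), and the intervals of T-like cells and of this cluster did not overlap in either library. Icos UMIs were in 1.68% and 2.45% of cells of the Il1r2 cluster, and in 0.0735% and 0% of beta-like cells.

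Cd28 encodes the receptor that gives T cells their first costimulatory signal. T-like cells held 93 Cd28 UMIs in HAMS, 228 CPM (184 to 280), and 180 in HAMSAB, 243 CPM (209 to 281). The log2 ratio was 0.09 (-0.28 to 0.47), and 22.0% (17.6 to 27.1) and 20.6% (17.6 to 23.7) of T-like cells had a UMI. Of the Icos-positive T-like cells 25.9% in HAMS and 23.8% in HAMSAB also had Cd28, close to the 22.0% and 20.6% among all T-like cells. Plasma-like cells were second in order in HAMSAB with 11 Cd28 UMIs in 9 of 61 cells, 150 CPM (75.1 to 269), an interval that overlapped that of T-like cells. HAMS plasma-like cells had 0 UMIs in 21 cells, which at 3 counts allows a share of up to 14.3% (exact upper bound 16.1%), and their 3-count limit of 146 CPM lies beside the HAMSAB level, so a difference was not detectable. The 5 defining T cell genes were at 0 UMIs in the plasma-like cells of both libraries.

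**Figure D2:**
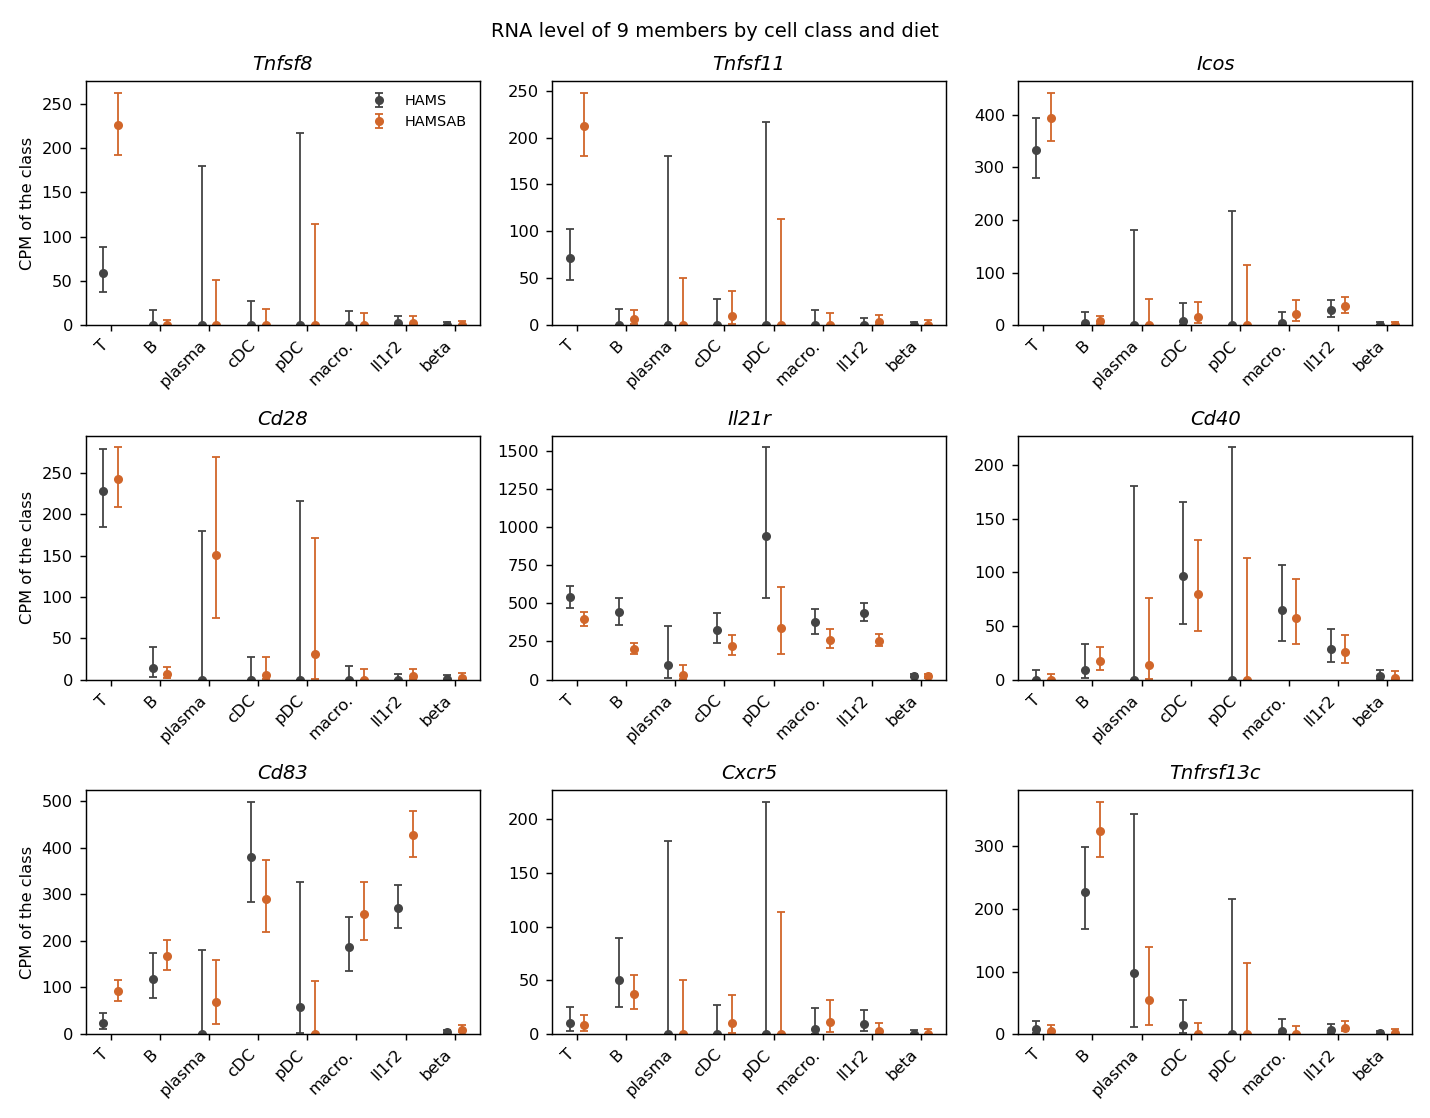
RNA level of the 9 detected genes (y axis, CPM of the class) in 7 immune groups and beta-like cells (x axis), with points for HAMS (dark) and HAMSAB (orange) and bars for exact Poisson 95% intervals. Tnfsf8 stands at 58.9 and 226 CPM in T-like cells and Il21r is lower in HAMSAB in each immune class drawn, while plasma-like and pDC-like intervals are wide.

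Il21r encodes the receptor of interleukin 21, which signals with the common gamma chain. Its level was lower in HAMSAB than in HAMS in all 6 immune classes with at least 20 UMIs. T-like cells held 220 Il21r UMIs, 540 CPM (471 to 616), in HAMS and 294, 397 CPM (353 to 445), in HAMSAB. These intervals did not overlap, and the log2 ratio was -0.44 (-0.70 to -0.18). B-like cells held 97 UMIs, 441 CPM (357 to 538), and 131 UMIs, 202 CPM (169 to 239), a log2 ratio of -1.13 (-1.52 to -0.73). The Il1r2 cluster had 229 UMIs, 439 CPM (384 to 500), and 176 UMIs, 255 CPM (219 to 296), a log2 ratio of -0.78 (-1.08 to -0.49). B-like cells and the Il1r2 cluster were alike in HAMS, and the B-like level was the lowest of the 6 classes in HAMSAB. Macrophage-like cells had 87 and 73 UMIs, 377 CPM (302 to 465) and 262 CPM (205 to 329), with a log2 ratio of -0.52 (-0.99 to -0.06). In cDC-like cells 44 and 44 UMIs gave 327 CPM (238 to 440) and 219 CPM (159 to 295), and the interval of the log2 ratio, -0.58 (-1.21 to 0.06), reached above 0. In pDC-like cells 16 and 11 UMIs gave 939 CPM (537 to 1525) and 339 CPM (169 to 606), a log2 ratio of -1.47 (-2.72 to -0.27).

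Il21r stood first in pDC-like cells in HAMS and in T-like cells in HAMSAB, but the intervals of neighbours in the order overlapped through all 6 classes in both libraries. Beta-like cells lay below all 6 classes at 23.7 CPM (15.5 to 34.7) and 23.1 CPM (13.4 to 36.9), where the libraries were alike. The share of cells with an Il21r UMI was 31.6% (25.1 to 38.7) and 16.5% (13.7 to 19.6) in B-like cells, 14.1% (8.94 to 20.7) and 10.9% (8.26 to 14.0) at 500 UMIs, where the intervals overlapped. In the Il1r2 cluster the thinned shares were 19.1% (16.0 to 22.5) and 11.3% (9.17 to 13.7) and did not overlap, beside 0.837% and 0.338% in beta-like cells. Thinning moved the B-like log2 ratio of Il21r to -0.53, and with at least 500 genes per cell the cDC-like ratio, then from 11 and 22 UMIs, became 0.29. The pDC-like ratio was -1.03 from 11 and 11 UMIs once cells with defining genes of another class were left out. Of 307 genes measured in all 6 classes 8.47% were lower in HAMSAB in all 6, Il21r among them, and 8.79% were higher in all 6. In the authors' deposited table for the cells they named cdc, Il21r is listed with a log2 fold change of 0.65, higher in HAMS, and as detected in 25.1% of HAMS and 15.3% of HAMSAB cells, with an adjusted p-value of 0.000153 that the authors computed. That p-value rests on the same 1 library per diet, so it gives no replicate check. The cells named cdc need not match the classes here. Cells with an Il21r UMI were 30.2% and 18.2% of cDC-like cells and 25.9% and 16.8% of the Il1r2 cluster. The other 7 of the authors' deposited tables list none of the 10 genes.

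Cd40 encodes the receptor of CD40 ligand, and it was scarce. cDC-like cells were highest with 13 UMIs, 96.7 CPM (51.5 to 165), in HAMS and 16 UMIs, 79.8 CPM (45.6 to 130), in HAMSAB, a log2 ratio of -0.28 (-1.43 to 0.90). Macrophage-like cells followed with 15 and 16 UMIs, 64.9 CPM (36.3 to 107) and 57.4 CPM (32.8 to 93.2), a ratio of -0.18 (-1.29 to 0.94). The Il1r2 cluster had 15 and 18 UMIs, 28.8 and 26.1 CPM, a ratio of -0.14 (-1.21 to 0.95). All 3 intervals span 0, and with so few UMIs each allows a difference near 2-fold or more either way. B-like cells held 2 and 11 Cd40 UMIs, and T-like cells 0 and 0.

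Cd83 encodes a surface protein of mature dendritic cells and activated lymphocytes. T-like cells held 10 Cd83 UMIs in HAMS, 24.5 CPM (11.8 to 45.1), and 68 in HAMSAB, 91.8 CPM (71.3 to 116). The intervals did not overlap, and the log2 ratio was 1.90 (0.94 to 3.03). The gene was in 7 and 49 T-like cells, 2.24% (0.904 to 4.55) and 6.95% (5.19 to 9.08). At 500 UMIs the shares were 0.763% (0.0926 to 2.73) and 3.98% (2.51 to 5.96), intervals that overlapped at their ends, beside 0.105% and 0.338% of beta-like cells. Of the defining B cell genes 1 of 5 was detected in HAMS T-like cells (4.91 CPM in sum) and 5 of 5 in HAMSAB T-like cells (33.8 CPM). The defining cDC genes summed to 31.9 and 23.0 CPM there, with 1 and 4 of 5 detected. With the cells that held UMIs of at least 2 defining genes of another class left out, 4 in HAMSAB and 0 in HAMS, the log2 ratio of Cd83 was 1.92. Weighting each cell equally gave 1.25. The part of RNA from other cells in these values was not tested further.

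The Il1r2 cluster held the most Cd83 UMIs, 141 in HAMS, 271 CPM (228 to 319), and 294 in HAMSAB, 426 CPM (379 to 478). The log2 ratio there was 0.66 (0.36 to 0.96), with the gene in 15.1% (12.6 to 17.9) and 22.3% (19.7 to 25.03) of cells. cDC-like cells went the other way with 51 and 58 UMIs, 380 CPM (283 to 499) and 289 CPM (220 to 374), and the log2 ratio of -0.39 (-0.96 to 0.18) crossed 0. That value depended on which cells were called cDC-like, since classing each cell by its own markers gave 0.41 from 100 and 183 UMIs. Macrophage-like cells had 43 and 72 UMIs with a ratio of 0.47 (-0.09 to 1.05), and B-like cells 26 and 109 with 0.51 (-0.12 to 1.18). In order of level cDC-like cells were first in HAMS and the Il1r2 cluster in HAMSAB, and only the latter was clear of the next class.

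Tnfrsf13c encodes the BAFF receptor. B-like cells held 50 Tnfrsf13c UMIs in HAMS, 227 CPM (169 to 299), and 211 in HAMSAB, 325 CPM (283 to 372), intervals that overlapped at their ends. The log2 ratio was 0.52 (0.07 to 0.99), and 20.2% (14.8 to 26.6) and 22.7% (19.5 to 26.1) of B-like cells had a UMI. Plasma-like cells held 2 and 4 UMIs, and their intervals overlapped that of B-like cells in HAMS only. Cxcr5 encodes the follicle homing receptor, and B-like cells held 11 UMIs, 49.98 CPM (24.9 to 89.4), in HAMS and 24 UMIs, 37.0 CPM (23.7 to 55.0), in HAMSAB. Its log2 ratio of -0.44 (-1.52 to 0.74) spans 0, and T-like cells held 4 and 6 Cxcr5 UMIs.

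**Figure D3:**
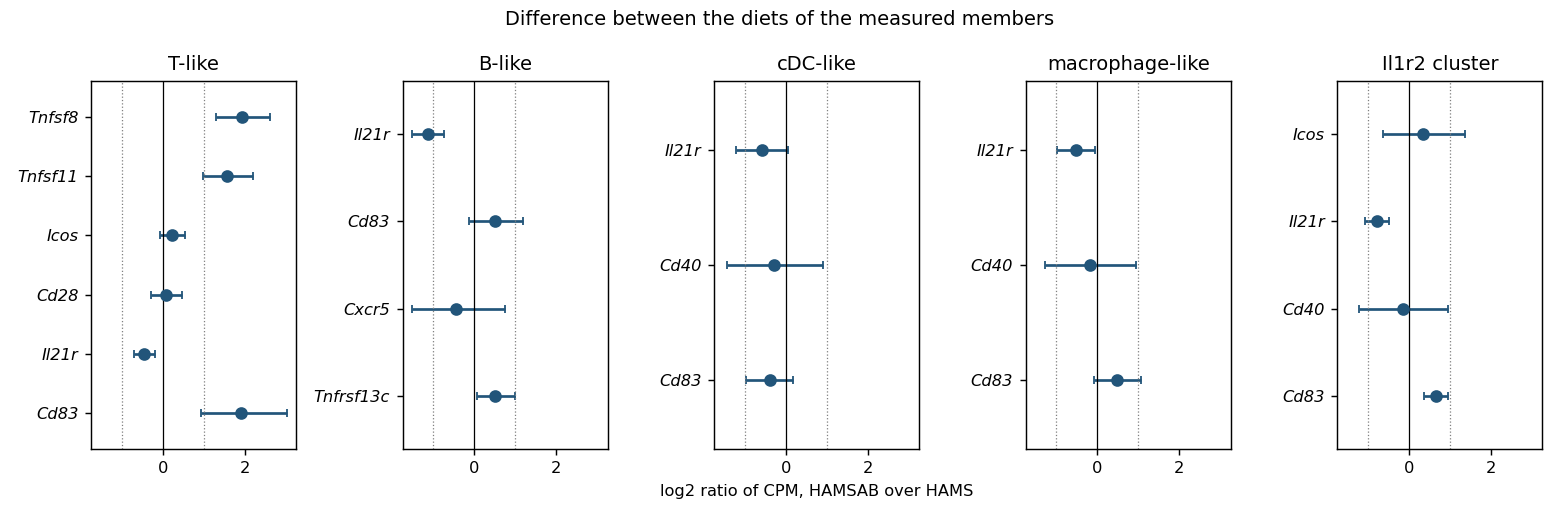
Log2 ratio of CPM, HAMSAB over HAMS (x axis), of each gene with at least 20 UMIs over both libraries in 5 cell groups, with exact conditional 95% intervals, a solid line at 0 and dotted lines at 2-fold. Tnfsf8, Tnfsf11 and Cd83 lie beyond 2-fold higher in T-like cells, Il21r lies beyond 2-fold lower in B-like cells, and Icos and Cd28 lie near 0.

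Taking the genes by class, 6 of the 10 were measured in T-like cells, that is, had at least 20 UMIs over both libraries. Of these 3 (Tnfsf8, Tnfsf11 and Cd83) were at least 2-fold higher in HAMSAB and none at least 2-fold lower, where 5.61% of 5725 measured genes were as much higher and 2.59% as much lower. The median log2 ratio of the 6 was 0.91, and that of all measured genes 0.01. The 10 genes were chosen with earlier results of these data known, so setting them beside all genes is a description only. In B-like cells 4 were measured, 1 of them (Il21r) at least 2-fold lower beside 3.44% of 4978 genes, and none at least 2-fold higher beside 7.65%, with a median of 0.04. In pDC-like cells Il21r alone was measured and was at least 2-fold lower, as were 8.4% of 357 genes, with 8.68% as much higher. None of 3 measured genes in cDC-like cells passed 2-fold, beside 5.99% of genes higher and 4.39% lower. Nor did any of 3 in macrophage-like cells (4.54% and 5.14%) or of 4 in the Il1r2 cluster (4.57% and 3.04%). The medians of the 3 groups were -0.39, -0.18 and 0.10. No gene of the 10 was measured in plasma-like cells. Of all 21 ratios 5 had intervals wholly above 0 and 5, all Il21r, wholly below 0, with no adjustment for their number. Among all measured genes the shares wholly above and wholly below 0 were 7.6% and 5.97% in T-like, 6.03% and 5.2% in B-like, 6.51% and 6.2% in cDC-like, 4.76% and 8.4% in pDC-like, and 6.9% and 7.06% in macrophage-like cells, and 8.68% and 6.78% in the Il1r2 cluster.

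**Figure D4:**
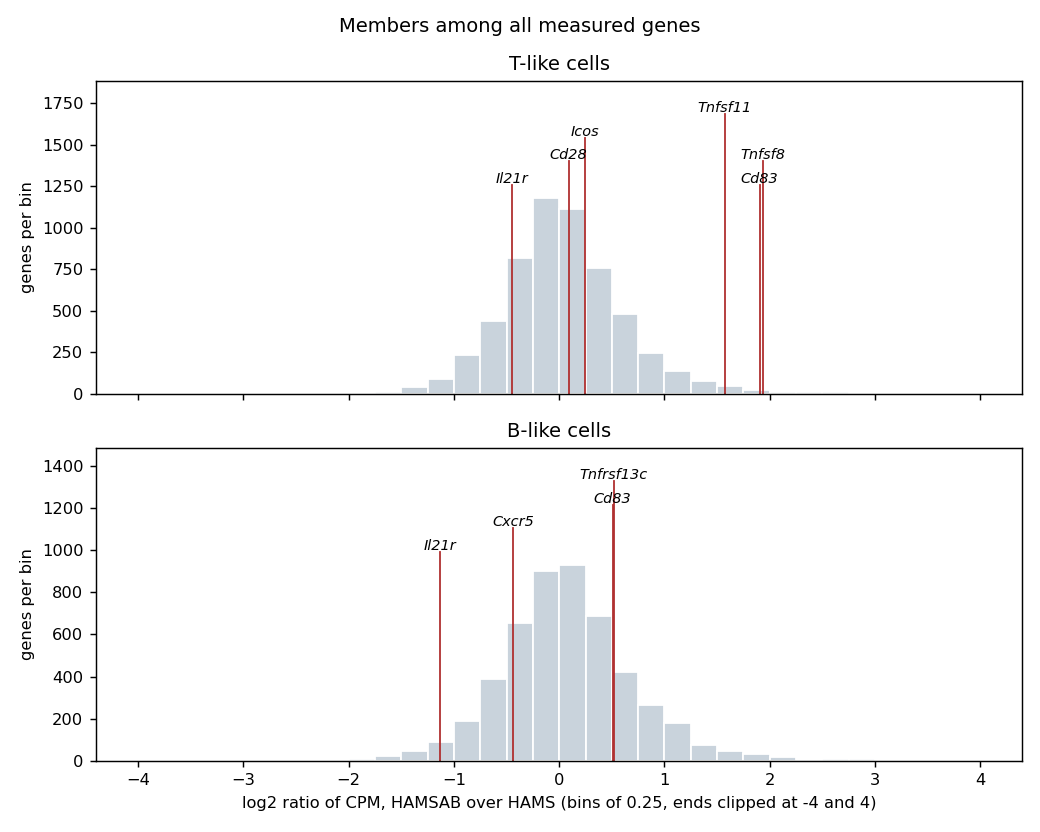
Number of measured genes (y axis) by log2 ratio of HAMSAB over HAMS (x axis, bins of 0.25) in T-like cells (top) and B-like cells (bottom), with red lines at the ratios of the named genes, whose heights carry no value. Cd83 at 1.90, Tnfsf8 at 1.94 and Tnfsf11 at 1.57 stand in the upper tail of T-like cells, and Il21r at -1.13 in the lower tail of B-like cells. The named genes were chosen with earlier results of these data known.

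T cell help is best known from CD4 T cells, so T-like cells were also split by their own Cd4, Cd8a and Cd8b1 UMIs. A CD4 gate (Cd4 and neither Cd8 gene) held 14 HAMS and 33 HAMSAB cells, a CD8 gate (the reverse) 54 and 95, and 245 and 577 cells had none of the 3 genes. Over both diets Tnfsf8 was at 309 CPM in the CD4 gate and 85.8 CPM in the CD8 gate, a log2 ratio of 1.85 (0.89 to 2.80) from 20 and 21 UMIs. Tnfsf11 was at 324 and 106 CPM, a ratio of 1.61 (0.71 to 2.50), and Icos at 556 and 204 CPM, a ratio of 1.44 (0.78 to 2.09). The pooled intervals of these 3 genes lay above 0, while those of Cd28 at 0.61 (-0.29 to 1.46), Il21r at -0.39 (-1.11 to 0.26) and Cd83 at 0.11 (-1.95 to 1.78) spanned it. Within HAMS, with its few CD4 gate UMIs, the intervals of all 3 spanned 0, and Icos was at 237 CPM in the CD4 gate and 232 CPM in the CD8 gate, a ratio of 0.03 (-1.71 to 1.44). Within HAMSAB they lay above 0, at 1.49 (0.45 to 2.51) for Tnfsf8, 1.25 (0.31 to 2.17) for Tnfsf11 and 1.96 (1.15 to 2.78) for Icos. With cells thinned to 500 UMIs only 4 and 7 Tnfsf8 UMIs remained in the gates, and the ratio of 1.02 (-1.20 to 2.999) spanned 0, as did that of Tnfsf11 at 2.25 (-0.32 to 5.02), while Icos was at 2.83 (0.93 to 5.01).

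Tnfsf8 and Tnfsf11 were also higher in HAMSAB inside each gate, as far as the few UMIs allow. In the CD8 gate Tnfsf8 had 2 UMIs in HAMS and 19 in HAMSAB, a log2 ratio of 2.90 (0.85 to 6.05), and Tnfsf11 had 1 and 25, a ratio of 4.30 (1.69 to 9.66). In the CD4 gate Tnfsf8 had 3 and 17 UMIs with a ratio of 1.45 (-0.34 to 3.86), and Tnfsf11 had 2 and 19 with 2.20 (0.15 to 5.34). Icos had 25 and 25 UMIs and a ratio of -0.35 (-1.21 to 0.51) in the CD8 gate, and 5 and 31 UMIs and a ratio of 1.58 (0.21 to 3.30) in the CD4 gate. Il21r had 50 and 64 UMIs in the CD8 gate, a ratio of 0.01 (-0.55 to 0.57). In the CD4 gate it had 12 and 11, a ratio of -1.18 (-2.50 to 0.13). In cells of neither gate it had 158 and 219, a ratio of -0.54 (-0.84 to -0.23). Differences of these ratios between gates were not tested.

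A finer clustering made without the 10 genes divided T-like cells into 3 clusters. The first, led by Tcf7, Ikzf2 and Maf, held 87 HAMS and 309 HAMSAB cells, the next, led by Gata3, Icos and Cd28, held 130 and 258, and the last, led by Nkg7, Cxcr6 and Ccl5, held 95 and 126. Tnfsf8 was at 155 and 292 CPM in the Tcf7 cluster, a log2 ratio of 0.91 (0.22 to 1.68), and at 30.6 and 191 CPM in the Gata3 cluster, a ratio of 2.64 (1.18 to 4.58). In the Nkg7 cluster it had 0 UMIs in HAMS and 14 in HAMSAB, 101 CPM, and the lower bound of the log2 ratio was 1.81. Tnfsf11 followed with ratios of 0.71 (0.01 to 1.49) and 1.78 (0.68 to 3.07), and in the Nkg7 cluster it had 0 and 15 UMIs, 109 CPM in HAMSAB, with a lower bound of 1.93. Both ligands were therefore higher in HAMSAB in 3 of 3 clusters, and below 2-fold in the Tcf7 cluster. That cluster made up 27.9% of the HAMS and 44.6% of the HAMSAB T-like cells. With the 3 clusters weighted equally the ratios were 1.65 for Tnfsf8, 1.40 for Tnfsf11 and 1.22 for Cd83, against 1.94, 1.57 and 1.90 over all T-like cells. Il21r was lower in 3 of 3 clusters, with ratios of -0.49, -0.51 and -0.32, and Cd28 in 2 of 3.

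**Figure D5:**
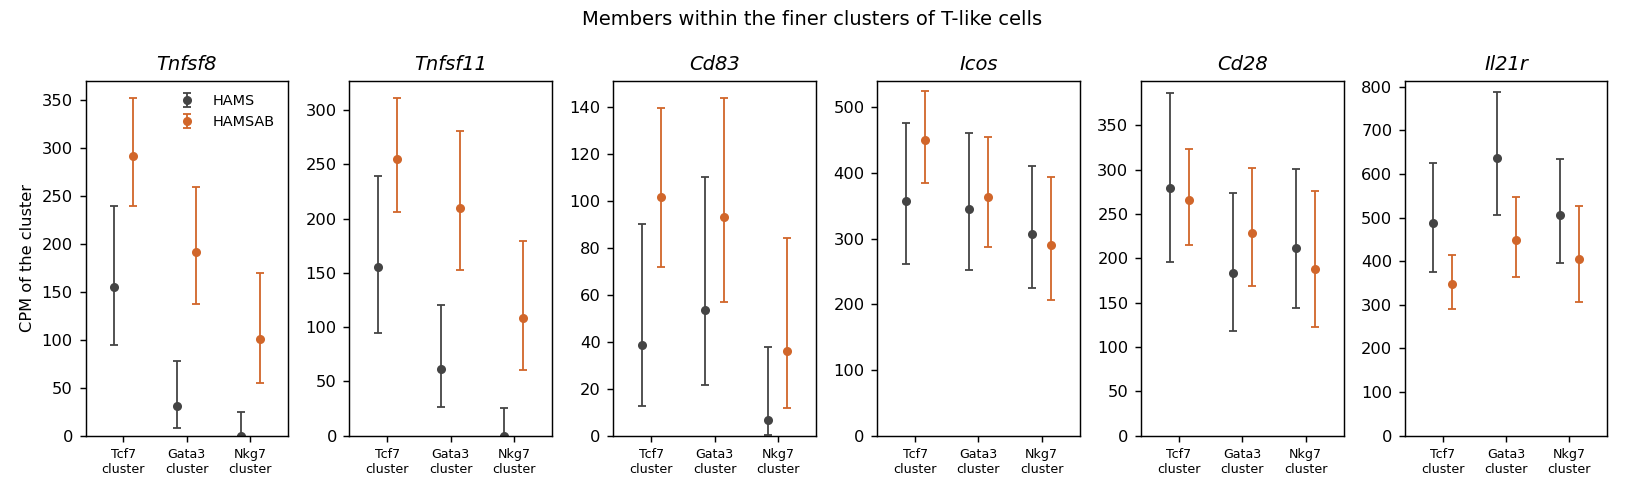
Level of 6 genes (y axis, CPM of the cluster) in the 3 finer clusters of T-like cells named by a leading gene (x axis), for HAMS (dark) and HAMSAB (orange) with exact Poisson 95% intervals. Tnfsf8 and Tnfsf11 are higher in HAMSAB in each cluster and at 0 UMIs in the Nkg7 cluster of HAMS, while Icos and Cd28 intervals overlap in each.

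The same finer clustering split B-like cells and drew cDC-like clusters anew. In the B-like cluster led by Bank1 and Ebf1 (132 and 442 cells) Tnfrsf13c was at 175 and 344 CPM, a log2 ratio of 0.98 (0.32 to 1.70), and in that led by Pou2af1, Mybl1 and Rgs13 (58 and 201 cells) at 302 and 294 CPM, a ratio of -0.04 (-0.68 to 0.65). Il21r was lower in HAMSAB in both, with ratios of -1.06 (-1.52 to -0.58) and -1.26 (-2.01 to -0.50). Cd83 was higher in HAMSAB in the cDC-like cluster led by Tnip3, Ccr7, Il1b and Ptgs2 (222 and 340 cells). It was at 311 and 532 CPM there, a ratio of 0.77 (0.31 to 1.25). In the cDC-like Xcr1 cluster (89 and 136 cells) Cd83 was at 325 and 276 CPM, a ratio of -0.24 (-0.91 to 0.44). In the cDC-like cluster led by Fscn1 and Fabp5 (88 and 115 cells) it was at 391 and 441 CPM, a ratio of 0.18 (-0.58 to 0.95). Of these clusters only the Xcr1 cluster had a Cd83 ratio below 0, with an interval that spans 0. Differences between the clusters were not tested.

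The binding partners of the 10 genes were read in the same way. Receptors of the T cell ligands were sparse: Tnfrsf8, which encodes CD30, had 5 and 7 UMIs over the immune and beta-like cells, and Tnfrsf11a, which encodes RANK, had 19 and 26 UMIs in the Il1r2 cluster, a log2 ratio of 0.05 (-0.86 to 0.98), and 19 and 12 in macrophage-like cells, a ratio of -0.93 (-2.11 to 0.18). Icosl, the ligand of ICOS, was highest in cDC-like cells at 394 and 349 CPM, a ratio of -0.18 (-0.71 to 0.37). Of the CD28 ligands, Cd80 was lower in HAMSAB cDC-like cells at 253 and 140 CPM, a ratio of -0.86 (-1.63 to -0.09). In the Il1r2 cluster Cd80 had 80 and 133 UMIs and a ratio of 0.33 (-0.08 to 0.75), and Cd86 had a ratio of -0.08 (-0.40 to 0.24). Il21, the ligand of the Il21r receptor, had 8 and 15 UMIs in T-like cells, 19.6 and 20.3 CPM, a ratio of 0.05 (-1.28 to 1.49). Il2rg, the common gamma chain, had ratios above 0 in the 5 classes where it was measured, among them 0.51 (-0.00 to 1.048) in T-like, 0.18 (-0.60 to 1.02) in B-like and 0.91 (0.17 to 1.68) in macrophage-like cells. Cxcl13, the ligand of CXCR5, was a macrophage-like gene with 133 and 68 UMIs, 576 and 244 CPM, a ratio of -1.24 (-1.68 to -0.81). Tnfsf13b, which encodes BAFF, had 13 and 10 UMIs over these cells.

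Lists of related genes give the setting in T-like cells. They were also chosen with earlier results of these data known. Of all 5725 measured genes there, 50.9% were higher in HAMSAB, 5.61% at least 2-fold, with a median of 0.01. Of 16 genes of CD40 and BAFF receptor signalling 15 were measured, 12 higher and 3 lower in HAMSAB, 3 of them at least 2-fold higher, with a median log2 ratio of 0.81. Among them the NF-kappa B subunit genes Rel, at 1.03 (0.72 to 1.35), and Nfkb1, at 0.98 (0.65 to 1.31), were higher. The intervals of Nfkb2 at -0.33 (-0.95 to 0.31) and Relb at -0.39 (-1.20 to 0.45) spanned 0. The receptor genes themselves were at or near 0 in T-like cells, with 0 and 0 UMIs of Cd40 and 3 and 4 of Tnfrsf13c. Signalling through these receptors was not tested. Of 12 follicular helper T cell genes 9 were measured, 6 higher and 3 lower, with a median of 0.07, and Maf, a transcription factor, was at 295 and 590 CPM. Slamf6, a receptor of T and B cell contact, was at 1.26 (0.41 to 2.21), and Sh2d1a, its adaptor, at -0.50 (-1.21 to 0.21). All 16 genes of the interleukin 21 and common gamma chain list were measured, 7 higher and 9 lower, with a median of -0.02. In it Socs1, a feedback inhibitor of cytokine signalling, was at 1.59 (0.83 to 2.43), Il7r at 1.46 (0.46 to 2.61) and Stat5b at -0.92 (-1.75 to -0.08). Of 14 other TNF family ligands 4 were measured, 2 higher and 2 lower, with a median of 0.36. Tnfsf4, which encodes OX40 ligand, was at 1.55 (0.28 to 3.10) from 6 and 32 UMIs, and Ltb, which encodes lymphotoxin beta, at -0.32 (-1.15 to 0.53). Of 15 TNF family receptors 6 were measured, 4 higher and 2 lower, none 2-fold apart, with a median of 0.11, and Tnfrsf4, which encodes OX40, was at 0.14 (-0.54 to 0.85). Of 10 other CD28 and B7 family genes 4 were measured, all higher, with a median of 0.41, among them Ctla4, an inhibitory receptor for the CD28 ligands, at 0.32 (-0.15 to 0.81). Of 10 homing genes in the matrices 6 were measured, 2 higher and 4 lower, with a median of -0.17. Ccr7, the lymph node homing receptor, was at 1.35 (0.74 to 2.01), and Cxcr4, a chemokine receptor, at -0.10 (-0.18 to -0.01).

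In B-like cells, where 53.8% of all measured genes were higher in HAMSAB with a median of 0.04, 10 genes of CD40 and BAFF receptor signalling were measured, 7 higher and 3 lower, with a median of 0.31. Nfkb1 was at 0.58 (0.09 to 1.11), and Traf3, an inhibitor of BAFF receptor and CD40 signalling, was at 86.3 and 30.8 CPM, a log2 ratio of -1.49 (-2.47 to -0.50). Irf4, a transcription factor of B cell activation, was at 45.4 and 90.8 CPM. In the Il1r2 cluster, where 53.5% of genes were higher, 15 genes of the same list were measured, 7 higher and 8 lower, with a median of -0.04, and Nfkbia, the NF-kappa B inhibitor, was at 0.77 (0.63 to 0.91) while Relb was at -0.73 (-1.17 to -0.29). Of the interleukin 21 and common gamma chain list 11 genes were measured in the Il1r2 cluster, 8 higher and 3 lower, with a median of 0.08. Stat5a was at -1.02 (-1.40 to -0.65) there and Socs1 at 0.87 (0.25 to 1.52). A link of these genes to the level of Il21r was not tested. In macrophage-like cells 11 genes of CD40 and BAFF receptor signalling were measured, 8 higher and 3 lower beside 49.8% of all genes higher. Their median was 0.28. In cDC-like cells 11 genes of CD40 and BAFF receptor signalling were measured, 4 higher and 7 lower beside 52.9% of all genes higher. Their median was -0.10.

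Genes whose level followed that of each member were sought over 22 points, the 11 classes of cells in each library, by Pearson's r of log2(CPM + 10) among 7335 genes. The points share libraries, depth and free RNA, so r is a description. Tnfsf8 was most like Penk (r = 0.976), Cd6 (0.958) and Lat (0.951), and Tnfsf11 most like Xcl1 (0.968), Penk (0.966) and Ms4a4b (0.961), of which Cd6, Lat, Xcl1 and Ms4a4b are lymphocyte genes. Icos was most like Ms4a4b (0.926), Gata3 (0.915) and Cd3g (0.900), and Cd28 like Vgll4 (0.864), Ctla4 (0.856) and Il2rb (0.849). Il21r followed the leukocyte genes Hcls1 (0.929), Ptpn6 (0.910) and Coro1a (0.905). Cd40 was most like Rasa4 (0.931), Mmp25 (0.928) and Il12b (0.918), and Cd83 like Rel (0.907), Irf5 (0.902) and Fam49b (0.901). The level of Tnfrsf13c followed those of the B cell genes Ms4a1 (0.952) and Cd22 (0.947). Cd40lg and Cxcr5 had under 100 UMIs and were not compared.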

How the data were processed

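Droplet libraries of NOD islets, 1 per diet and grouped by the treatment label, were deposited as matrices of raw UMI counts per gene and barcode. They were written by Cell Ranger 5.0.0, per the file headers, and the submitters' processing notes name mm10, GRCm38 and Seurat. Cell calling settings are not stated. The authors' 8 deposited tables give, per gene, a log2 fold change, a p-value, an adjusted p-value and the fraction of cells with the gene. Their test is not given in the sources used here, and 8 columns, the shares in the diet a row is not named for, were not used.

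Barcodes with 200 or more genes and no more than 20% mitochondrial UMIs were kept as cells, 96.2% for HAMS and 92.2% for HAMSAB. Both libraries were clustered together with scanpy 1.11.5 (10000 UMIs per cell, log scale, 2000 variable genes, scaling, 30 components, 15 neighbours, Leiden resolution 1 by igraph 0.11.9). Gene scaling and the number of Leiden iterations were settled after several versions were seen, for the one that parted B-like from plasma-like cells and came closest to earlier class sizes. A cluster was named X-like from fixed markers, at least 3 of them seen in at least 5% of its cells. The Il1r2 cluster joins unnamed clusters with that gene among their 10 leading genes, and was set after its genes were seen. Doublets were not called and all such cells were kept. The finer clustering (resolution 2 without the 10 genes) and the equal weighting of its T-like clusters were added after the data were seen.

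UMIs were summed per class and library for classes of at least 20 cells per library. CPM has exact Poisson, shares Clopper-Pearson and ratios exact conditional binomial 95% intervals, which cover counting error only. The ratio intervals were tried on simulated Poisson class sums, which share their own assumption, so this checks the computation only. Spread of UMIs between cells was not simulated. A UMI is counted once per molecule, and 24.97% of HAMS and 22.8% of HAMSAB cells had under 500 UMIs and were left out of thinned shares. Named are the 10 genes in every class, up to 2 highest and 2 lowest genes per list and class by the interval bound nearest 0 with at least 20 UMIs, the 3 most alike genes for each member with at least 100 UMIs, and members in the authors' tables. Of these the text gives a selection made after their values were seen, and some genes the rule names are not reported here. The binding partners were taken as known pairs and also chosen with their values known. The members and lists were chosen with earlier results of these data known. Python 3.11.15, numpy 2.4.6 and scipy 1.17.1 were used.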

Additional observations from a re-analysis of the deposited data

How the results depend on the processing

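With 1 library per diet no result could be checked by leaving a library out. No paired analysis was possible because each diet has 1 library. Of 186 class medians and counts under alternatives 173 kept their value by the set limits, and no ratio of 2-fold or more changed sign. Over its alternatives the T-like log2 ratio ranged from 1.48 to 1.94 for Tnfsf8, 1.13 to 1.92 for Tnfsf11, 1.25 to 3.02 for Cd83 and -0.69 to -0.24 for Il21r. Il21r ranged from -1.23 to -0.53 in B-like cells and -1.19 to 0.29 in cDC-like cells. With no UMI minimum the T-like median was 0.17 (8 genes), the genes at least 2-fold lower were 2 in B-like cells and 1 in the Il1r2 cluster, and those at least 2-fold higher 1 in cDC-like and 2 in macrophage-like cells. With cells thinned to 500 UMIs the lower counts were 0 in B-like and 1 in cDC-like cells and the higher count in the Il1r2 cluster 1, and with cells weighted equally the B-like lower count was 0. Cells of 500 or more genes gave a cDC-like median of 0.27 and higher counts of 1 each in macrophage-like cells and the Il1r2 cluster, and when single cells were classed by their markers the cDC-like median was 0.24. The cause of these shifts was not tested, but thinning, the gene filter and the UMI minimum by construction change which genes are measured. No alternative gave a value for plasma-like cells, pDC-like cells gave none with at least 50 UMIs, with 500 or more genes or with thinning, and the Il1r2 cluster does not arise when cells are classed singly. Depth limits Cd40, Cxcr5, the plasma-like and pDC-like classes and the gates, which rest on few UMIs.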
